A study of Mus musculus with 24 samples.

Results

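The genes described here were 10 transcription factors and coactivators of the B lineage, Pax5, Ebf1, Tcf3, Foxo1, Ikzf1, Ikzf3, Pou2af1, Spib, Bach2 and Irf4. They were chosen by symbol with earlier results of these data known, so their counts beside shares of all tested genes are descriptive. Each matched 1 row of the 54752 rows of the TPM table through its Ensembl ID in GENCODE M21. Marrow RNA of 24 male C57BL/6 mice was sequenced, with 6 mice in each of 4 groups. GC-WT mice were wild-type ground controls, FL-WT mice were wild types that spent 31 days in space, GC-KO mice were Nrf2-knockout ground controls and FL-KO mice were Nrf2-knockout mice from the same flight. The flight mice were 8 weeks old when they were moved to the launch site 3 weeks before launch, and the ground controls were kept in Japan. The cells of all mice came from the right pelvis and tibia and had been cryopreserved. Flight mice were killed after they had returned to the ground. They were dissected in the United States and ground controls in Japan. Flight, the return to normal gravity and the site of dissection therefore cannot be told apart.

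B cells arise in the bone marrow from lymphoid progenitors. The E protein Tcf3 (E2A) and Ebf1 open the B lineage programme with Foxo1, and Pax5 then holds the cells in it and silences genes of other lineages. The zinc finger proteins Ikzf1 (Ikaros) and Ikzf3 (Aiolos) act from the early progenitor to the pre-B cell, and Pou2af1 (OBF-1), Spib, Bach2 and Irf4 act in pre-B cells and in mature B cells up to the plasma cell. Nrf2, encoded by Nfe2l2, binds antioxidant response elements together with small Maf proteins, the same partners that Bach2 takes.

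Promoter sequences from RefSeq on GRCm38.p6 were matched to 9 of the 10 genes, in 11 windows, and none to Ikzf3. The 250 bases before each RefSeq start were searched on both strands. All windows of Ebf1, Ikzf1 and Bach2 lie within the spans of these genes in GENCODE M21. A motif named as before a gene lies before a RefSeq start, which for Ebf1, Ikzf1 and Bach2 is inside the gene. The core letters of the antioxidant response element, TGACNNNGC, occurred before Tcf3 and Pou2af1, at positions -61 to -53 in both, where -1 is the base before the RefSeq start. They occurred in 10.2% of all 32851 windows of that length. The GC box GGGCGG was found before 6 of the genes, Foxo1, Ikzf1, Irf4, Pax5, Spib and Tcf3, and in 32.7% of all windows. Tcf3, Pou2af1 and Spib are shown because they were at least 2-fold lower on the log2(TPM + 1) scale in the most comparisons. Each sequence runs 5′ to 3′ on the strand of its gene, and the capitals mark the antioxidant response element letters and GC boxes. The Tcf3 window was shortened by 12 bases that lie within the gene in GENCODE M21.
Tcf3, chr10:80433648-80433885, minus strand: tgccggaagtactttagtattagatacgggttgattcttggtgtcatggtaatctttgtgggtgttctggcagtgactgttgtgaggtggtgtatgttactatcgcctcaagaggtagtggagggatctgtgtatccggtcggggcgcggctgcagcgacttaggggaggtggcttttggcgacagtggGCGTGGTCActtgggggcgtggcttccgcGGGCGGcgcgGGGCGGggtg
Pou2af1, chr9:51213440-51213689, plus strand: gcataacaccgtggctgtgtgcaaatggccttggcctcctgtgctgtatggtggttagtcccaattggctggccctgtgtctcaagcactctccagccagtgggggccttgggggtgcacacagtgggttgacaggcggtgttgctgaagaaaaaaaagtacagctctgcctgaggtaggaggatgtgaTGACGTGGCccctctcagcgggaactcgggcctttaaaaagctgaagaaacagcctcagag
Spib, chr7:44532072-44532321, minus strand: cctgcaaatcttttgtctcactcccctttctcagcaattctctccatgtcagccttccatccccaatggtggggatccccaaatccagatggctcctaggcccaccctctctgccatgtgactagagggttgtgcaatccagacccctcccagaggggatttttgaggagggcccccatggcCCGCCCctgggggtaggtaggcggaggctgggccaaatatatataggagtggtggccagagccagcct
Motifs bound by some of the 10 factors or their families were also searched. The E boxes CAGCTG and CAGGTG, bound by E proteins, were found before none of the 9 genes and in 13% and 17.2% of all windows, respectively. The octamer ATGCAAAT, where Pou2af1 acts with Oct factors, was found before none and in 1.60% of all windows, and the FOXO letters TGTTTAC before none and in 3.17%. The ETS core GAGGAA occurred before a RefSeq start within Ebf1, before Irf4 and in 23.3% of all windows. These are matches of letters and not binding sites.

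The labels of genotype were first checked with Nfe2l2 itself. Its level was 17.1 to 26.1 TPM (median 21.5) in GC-WT mice, 11.4 to 27.3 (median 19.2) in FL-WT mice, 3.60 to 7.18 (median 4.89) in GC-KO mice and 2.22 to 4.31 (median 3.11) in FL-KO mice. Every Nrf2-KO mouse was below every wild-type mouse. Markers of marrow cells were present in all libraries, with 9 erythroid genes summing to 86936 to 244603 TPM and 10 neutrophil genes to 30066 to 67259 TPM. The 5 B lineage surface genes Cd79a, Cd79b, Cd22, Cd72 and Ms4a1 were all detected and summed to 68.2 to 228 TPM. From 35.4% to 59.6% of a library's TPM fell on 5 small structural RNAs, and the median TPM of expressed genes had a group median of 4.76 in ground wild types, 3.62 in flight wild types, 3.38 in ground Nrf2-KO mice and 2.42 in flight Nrf2-KO mice. Differences below are fitted differences of log2(TPM + 1), which understate the change of low genes.

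All 10 factors were highest in GC-WT mice and lowest in FL-KO mice by their group means, with FL-WT and GC-KO mice between them. The FL-KO means were 15.2% (Spib) to 44.1% (Ikzf1) of the GC-WT means. In each of 4 comparisons all 10 were lower at an adjusted p under 0.1 in limma. Beside them, 39% of the 12373 tested genes were lower with flight in wild types (FL-WT vs. GC-WT) and 53.1% with flight in Nrf2-KO mice (FL-KO vs. GC-KO). With loss of Nrf2, 42.9% were lower on the ground (GC-KO vs. GC-WT) and 47.2% after flight (FL-KO vs. FL-WT). Values given as 4 numbers follow this order. Fewer were also at least 2-fold lower on the log2(TPM + 1) scale, the rule under which a gene is called here. In bulk RNA, fewer cells of a type and less RNA per cell cannot be told apart.

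**Figure D1:**
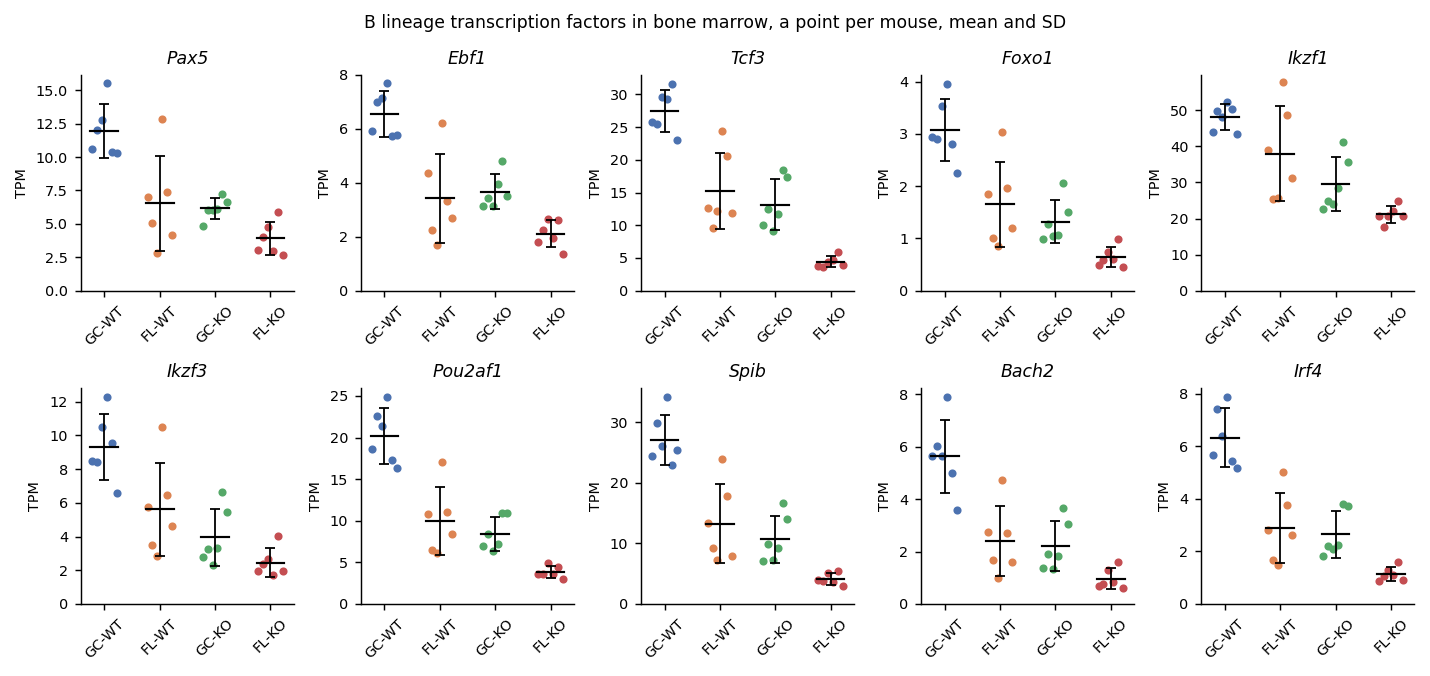
TPM of the 10 genes (y axis, linear from 0) in the 4 groups (x axis), with a point per mouse and the mean and SD of 6 mice as bars. The GC-WT mean is highest and the FL-KO mean lowest in all 10 panels, and 1 FL-WT mouse lies above the other FL-WT mice throughout.

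TPM is scaled by transcript length, so levels can be ranked between genes. In GC-WT mice Ikzf1 came first at 48.0 ± 3.61 TPM (SD, n = 6), and its range did not touch that of the next gene in any of the 4 groups. Tcf3 followed at 27.5 ± 3.21 TPM, Spib at 27.1 ± 4.13 TPM and Pou2af1 at 20.2 ± 3.32 TPM, with ranges that overlapped from each gene to the next. Below a gap came Pax5 at 11.9 ± 2.02 TPM, Ikzf3 at 9.31 ± 1.96 TPM, Ebf1 at 6.55 ± 0.846 TPM, Irf4 at 6.33 ± 1.11 TPM, Bach2 at 5.63 ± 1.40 TPM and Foxo1 at 3.07 ± 0.597 TPM, and each overlapped its neighbour. In the other 3 groups the order of the means was the same, except that Pax5 stood above Pou2af1 in FL-KO mice, at 3.91 ± 1.26 and 3.84 ± 0.703 TPM.

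Among the commitment factors, Tcf3 showed the largest flight and genotype differences of the 10 genes in 2 comparisons. Tcf3 lies at chr10:80409514-80433647 on the minus strand (GRCm38). It was at 23.0 to 31.6 TPM (median 27.5) in GC-WT mice, 9.54 to 24.5 (median 12.5) in FL-WT mice, 9.07 to 18.4 (median 12.1) in GC-KO mice and 3.66 to 5.97 (median 4.16) in FL-KO mice. All FL-KO mice were below all mice of the other groups, whereas 5 of 6 FL-WT mice were below all GC-WT mice. The fitted differences were -0.87 ± 0.18 (SE) with flight in wild types (adjusted p = 0.00139), -1.36 ± 0.18 with flight in Nrf2-KO mice (adjusted p = 1.84e-05), -1.04 ± 0.18 with loss of Nrf2 on the ground (adjusted p = 0.000411) and -1.53 ± 0.18 with loss of Nrf2 after flight (adjusted p = 9.88e-07).

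Ebf1, the pioneer factor of the lineage, lies at chr11:44617317-45008091 on the plus strand. Its level was 5.72 to 7.70 TPM (median 6.46) in GC-WT mice, 1.70 to 6.23 (median 3) in FL-WT mice, 3.13 to 4.82 (median 3.48) in GC-KO mice and 1.37 to 2.64 (median 2.11) in FL-KO mice. GC-KO mice did not overlap GC-WT mice, and FL-KO mice did not overlap GC-KO mice, but only 1 of 6 FL-KO mice was below all FL-WT mice. Ebf1 differed with flight by -0.84 ± 0.17 in wild types (adjusted p = 0.00103) and by -0.59 ± 0.17 in Nrf2-KO mice (adjusted p = 0.00834). Between genotypes Ebf1 differed by -0.70 ± 0.17 on the ground (adjusted p = 0.00224) and by -0.45 ± 0.17 after flight (adjusted p = 0.0334).

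Pax5, the factor that maintains B cell identity, lies at chr4:44524757-44710487 on the minus strand. In GC-WT mice it was at 10.3 to 15.5 TPM (median 11.3), in FL-WT mice at 2.79 to 12.9 (median 6.04), in GC-KO mice at 4.82 to 7.26 (median 6.10) and in FL-KO mice at 2.66 to 5.92 (median 3.55). FL-WT mice were the most scattered, with a coefficient of variation of 54.1% against 16.9% in GC-WT mice. Pax5 differed with flight by -0.89 ± 0.21 in wild types (adjusted p = 0.00353) and by -0.57 ± 0.21 in Nrf2-KO mice (adjusted p = 0.0305). Between genotypes Pax5 differed by -0.85 ± 0.21 on the ground (adjusted p = 0.00234) and by -0.54 ± 0.21 after flight (adjusted p = 0.0376).

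Foxo1, which drives Rag genes and the Il7r gene in B progenitors, lies at chr3:52268336-52353221 on the plus strand and was the lowest of the 10 in every group. It was at 2.26 to 3.96 TPM (median 2.93) in GC-WT mice, 0.85 to 3.04 (median 1.53) in FL-WT mice, 0.99 to 2.06 (median 1.17) in GC-KO mice and 0.46 to 0.99 (median 0.59) in FL-KO mice. GC-KO mice lay below all GC-WT mice, and 5 of 6 FL-WT mice did so. Foxo1 differed with flight by -0.66 ± 0.15 in wild types (adjusted p = 0.00365) and by -0.49 ± 0.15 in Nrf2-KO mice (adjusted p = 0.0152). Between genotypes Foxo1 differed by -0.81 ± 0.15 on the ground (adjusted p = 0.000485) and by -0.65 ± 0.15 after flight (adjusted p = 0.00121). At levels near 1 TPM the pseudocount of 1 weighs on the difference, and the group means themselves fell to 43.1% in GC-KO of GC-WT mice and to 48.7% in FL-KO of GC-KO mice.

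The Ikaros family members differed from each other in level and in size of change. Ikzf1, at chr11:11685003-11772926 on the plus strand, is used by lymphoid, myeloid and erythroid progenitors as well as B cells. Its level was 43.4 to 52.4 TPM (median 49.0) in GC-WT mice, 25.4 to 57.9 (median 35.2) in FL-WT mice, 22.7 to 41.3 (median 26.7) in GC-KO mice and 17.6 to 25 (median 20.8) in FL-KO mice. Both Nrf2-KO groups lay wholly below their wild-type counterparts, whereas the flight and ground groups overlapped in both genotypes. The differences were -0.39 ± 0.17 with flight in wild types (adjusted p = 0.0760), -0.44 ± 0.17 with flight in Nrf2-KO mice (adjusted p = 0.0389), -0.71 ± 0.17 with loss of Nrf2 on the ground (adjusted p = 0.00184) and -0.76 ± 0.17 with loss of Nrf2 after flight (adjusted p = 0.000596).

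Ikzf3, which acts with Ikzf1 in pre-B cells and lies at chr11:98464902-98546031 on the minus strand, was lower than Ikzf1 in every mouse. It was at 6.58 to 12.3 TPM (median 9.03) in GC-WT mice, 2.85 to 10.5 (median 5.18) in FL-WT mice, 2.30 to 6.63 (median 3.28) in GC-KO mice and 1.72 to 4.05 (median 2.17) in FL-KO mice. It overlapped between the groups in each of the 4 comparisons, and on the ground by 1 GC-KO mouse at 6.63 TPM. Ikzf3 differed with flight by -0.71 ± 0.22 in wild types (adjusted p = 0.0200) and by -0.49 ± 0.22 in Nrf2-KO mice (adjusted p = 0.0761). Between genotypes Ikzf3 differed by -1.10 ± 0.22 on the ground (adjusted p = 0.000648) and by -0.87 ± 0.22 after flight (adjusted p = 0.00204).

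Pou2af1 and Spib serve the antigen receptor programme of B cells. Pou2af1 encodes the B cell coactivator of Oct factors and lies at chr9:51213708-51240080 on the plus strand. It was at 16.3 to 24.9 TPM (median 20.01) in GC-WT mice, 6.13 to 17.1 (median 9.61) in FL-WT mice, 6.39 to 10.9 (median 7.76) in GC-KO mice and 2.95 to 4.88 (median 3.59) in FL-KO mice. The FL-KO mice lay below all mice of the other 3 groups. Pou2af1 differed with flight by -1.01 ± 0.18 in wild types (adjusted p = 0.000328) and by -0.95 ± 0.18 in Nrf2-KO mice (adjusted p = 0.000350). Between genotypes Pou2af1 differed by -1.18 ± 0.18 on the ground (adjusted p = 0.000179) and by -1.12 ± 0.18 after flight (adjusted p = 1.57e-05).

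Spib, an ETS factor of B cells that is also used by plasmacytoid dendritic cells, lies at chr7:44525993-44532071 on the minus strand. It was at 22.9 to 34.1 TPM (median 25.8) in GC-WT mice, 7.34 to 23.98 (median 11.3) in FL-WT mice, 7.10 to 16.7 (median 9.56) in GC-KO mice and 2.95 to 5.39 (median 3.83) in FL-KO mice. As with Pou2af1, all FL-KO mice were below all other mice. Spib alone was called in all 4 comparisons, with -1.09 ± 0.22 with flight in wild types (adjusted p = 0.00117), -1.15 ± 0.22 with flight in Nrf2-KO mice (adjusted p = 0.000462), -1.32 ± 0.22 with loss of Nrf2 on the ground (adjusted p = 0.000396) and -1.38 ± 0.22 with loss of Nrf2 after flight (adjusted p = 1.77e-05).

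Bach2 and Irf4 act on opposite sides of the plasma cell decision, Bach2 as a repressor of it and Irf4 as a driver at high level. Bach2 lies at chr4:32238804-32586108 on the plus strand. Its level was 3.59 to 7.88 TPM (median 5.65) in GC-WT mice, 0.98 to 4.72 (median 2.20) in FL-WT mice, 1.35 to 3.66 (median 1.88) in GC-KO mice and 0.60 to 1.61 (median 0.785) in FL-KO mice. Both with flight in wild types and with loss of Nrf2 on the ground, 5 of 6 mice of the first group were below all mice of the second. Bach2 differed with flight by -1.02 ± 0.21 in wild types (adjusted p = 0.00118) and by -0.68 ± 0.21 in Nrf2-KO mice (adjusted p = 0.0126). Between genotypes Bach2 differed by -1.07 ± 0.21 on the ground (adjusted p = 0.000537) and by -0.74 ± 0.21 after flight (adjusted p = 0.00509).

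Irf4 lies at chr13:30749226-30766976 on the plus strand. It was at 5.18 to 7.87 TPM (median 6.03) in GC-WT mice, 1.48 to 5.02 (median 2.72) in FL-WT mice, 1.81 to 3.81 (median 2.23) in GC-KO mice and 0.88 to 1.58 (median 1.10) in FL-KO mice. Irf4 was the only one of the 10 whose FL-WT and GC-WT mice did not overlap. Irf4 differed with flight by -0.97 ± 0.18 in wild types (adjusted p = 0.000432) and by -0.74 ± 0.18 in Nrf2-KO mice (adjusted p = 0.00237). Between genotypes Irf4 differed by -1.03 ± 0.18 on the ground (adjusted p = 0.000411) and by -0.80 ± 0.18 after flight (adjusted p = 0.000555). Both fell in all 4 comparisons, and their ratio was not tested.

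FL-WT vs. GC-WT compared wild-type marrow after flight and return with that of ground controls. Pou2af1, Spib and Bach2 were called lower in it, 3 of 10 beside 0.938% of all tested genes. The means of FL-WT mice were 42.7% (Bach2) to 79.2% (Ikzf1) of those of GC-WT mice, and the median difference of the 10 was -0.88 beside -0.24 over all tested genes. The groups did not overlap for 1 of the 10, Irf4, and for 4.19% of all genes with the FL-WT mice lower. The spread among FL-WT mice was wide, and the same mice stood high or low for nearly all 10 genes. FL-WT mouse 7 was the highest FL-WT mouse for 10 of 10, and FL-WT mouse 6 was the lowest for 8 of 10, with FL-WT mouse 5 the lowest for Tcf3 and Ikzf1. Mouse 7 also had the highest median TPM of expressed genes in its group, 5.15, whereas mice 5 and 6 had the lowest, 2.54 and 2.90; the part of this in the spread was not tested. The number called moved with single mice, to 7 without FL-WT mouse 7, to 1 without FL-WT mouse 5 or GC-WT mouse 5 or 7, and to 0 without FL-WT mouse 6 or 10. The number lower at an adjusted p under 0.1, without the 2-fold limit, stayed at 9 or 10 when any 1 of the 24 libraries was left out.

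In FL-KO vs. GC-KO, the same comparison in Nrf2-KO mice, Tcf3 and Spib were called, 2 of 10 beside 2.13% of all tested genes. The FL-KO means were 33.5% (Tcf3) to 71.5% (Ikzf1) of the GC-KO means. Ebf1, Tcf3, Pou2af1, Spib and Irf4 did not overlap, 5 of 10 beside 18.4% of all genes. The median difference was -0.64 beside -0.29 over all genes, the smallest margin of the 4 comparisons. GC-KO mouse 11 was the highest of its group for 9 of the 10 and FL-KO mouse 11 for 8 of the 10. These are different animals. Each also had the highest median TPM of expressed genes in its group, 4.54 and 2.96, and the part of this was not tested.

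In GC-KO vs. GC-WT, the effect of the genotype on the ground, Tcf3, Ikzf3, Pou2af1, Spib, Bach2 and Irf4 were called, 6 of 10 beside 3.04% of all tested genes. The GC-KO means were 39.1% (Bach2) to 61.6% (Ikzf1) of the GC-WT means, and 8 of the 10 did not overlap beside 9.15% of all genes. The median difference of -1.03 lay 0.81 below that of all tested genes, -0.22. Called genes dropped to 3 without GC-KO mouse 1 and to 2 without GC-KO mouse 4, while all 10 remained lower at an adjusted p under 0.1 with any 1 library left out.

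In FL-KO vs. FL-WT, the genotype effect after flight, Tcf3, Pou2af1 and Spib were called, 3 of 10 beside 8.36% of all tested genes. The FL-KO means were 28.9% (Tcf3) to 61.7% (Ebf1) of the FL-WT means. Tcf3, Ikzf1, Pou2af1 and Spib did not overlap, 4 of 10 beside 20.6% of all genes. The median difference was -0.78 beside -0.25. The 4 comparisons share groups and are not independent of each other.

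**Figure D2:**
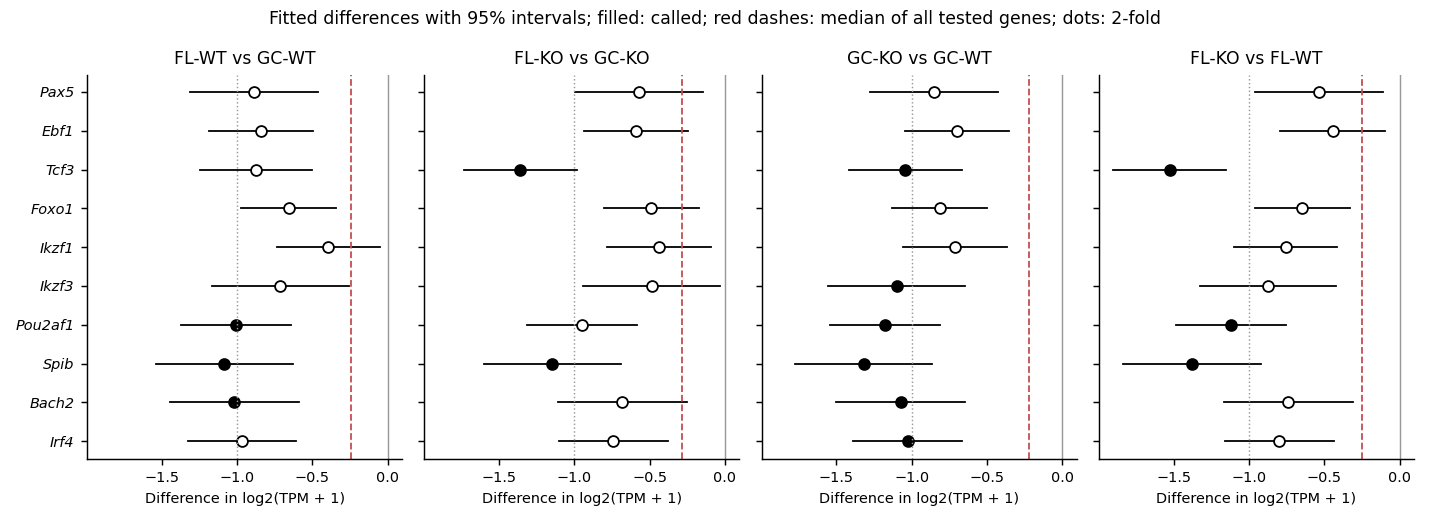
Fitted difference of log2(TPM + 1) (x axis) for each gene (y axis) in the 4 comparisons, with 95% intervals as lines and called genes as filled circles. The red dashed line is the median of all tested genes and the dotted line a 2-fold fall; all 40 estimates are below 0.

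Whether the flight difference itself depended on genotype was tested as the interaction, the difference with flight in Nrf2-KO mice minus that in wild types. None of the 10 was called in limma, beside 0.0162% of all tested genes, and 0 of the 10 had an unadjusted p under 0.05 on the deposited TPM scale. Tcf3 had the largest value, -0.49 with a 95% interval of -1.01 to 0.04 (unadjusted p = 0.0703, adjusted p = 0.999951). Negative values were also fitted for Ikzf1, -0.04 (interval -0.53 to 0.44), and Spib, -0.06 (-0.70 to 0.58). Positive values, meaning a smaller fall in log2(TPM + 1) with flight in Nrf2-KO mice, were fitted for the other 7, from 0.06 for Pou2af1 (-0.46 to 0.57) to 0.34 for Bach2 (-0.27 to 0.94). The pseudocount weighs on this sign at low levels. As a ratio of group means, flight over ground was lower in Nrf2-KO mice than in wild types for Foxo1 (48.7% and 53.9%), Irf4 (43.3% and 45.7%) and Pou2af1 (45.4% and 49.5%). It was higher in Nrf2-KO mice for Pax5, Ebf1, Ikzf3 and Bach2. The intervals of all 10 span 0 on this scale and leave room for a difference in either direction. The sign of the value depended on the setting for Ikzf1, Pou2af1 and Spib. Only Tcf3 had an unadjusted p under 0.05 in any alternative, in 6 of the 10. It was at -0.44 (interval -0.74 to -0.15, unadjusted p = 0.00495, adjusted p = 0.247 in limma) with median-of-ratios scaling, the lowest p of these, and at -0.33 (-0.61 to -0.04, adjusted p = 0.430) with quantile normalization.

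Library scaling bears on these values, since the median of all tested genes was itself 0.22 to 0.29 below 0 in the 4 comparisons. Median-of-ratios scaling moved that median to between -0.02 and 0.05. The 10 genes stayed lower in all 4 comparisons under it, with medians of -0.58, -0.38, -0.72 and -0.50. Those lower at an adjusted p under 0.1 were then 9, 6, 10 and 8 of 10, beside 17.4%, 22.2%, 28% and 30.6% of all tested genes, and those called 0, 1, 0 and 1 beside 0.145%, 0.21%, 0.525% and 2.99%, the called gene being Tcf3 both times. Ikzf1 was the gene that no longer passed with flight in wild types, at -0.07 ± 0.08, and Pax5, Ebf1, Ikzf1 and Ikzf3 those with flight in Nrf2-KO mice. Pax5 and Ebf1 no longer passed with loss of Nrf2 after flight, at -0.16 ± 0.18 and -0.11 ± 0.13.

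The median difference of tested genes of like GC content and length varied over the 10 genes. It ran from -0.38 to -0.22 with flight in wild types and from -0.53 to -0.25 with flight in Nrf2-KO mice. With loss of Nrf2 it ran from -0.61 to -0.19 on the ground and from -0.86 to -0.17 after flight. The longest transcripts of the 10 genes ran from 2548 nt (Pou2af1) to 8882 nt (Bach2) beside a median of 2991 nt over all tested genes, and their GC content from 43.1% (Ebf1) to 61.0% (Tcf3) beside a median of 49.1%. Tcf3 was richer in GC than 98.0% of all tested genes. The 200 genes within 2 points of its GC content and 0.5 of its log2 length had median differences of -0.27, -0.53, -0.61 and -0.86 in the 4 comparisons, beside -0.87, -1.36, -1.04 and -1.53 for Tcf3 itself. Pou2af1 had a middling GC content of 48.6%, and the 896 genes like it had medians of only -0.22, -0.25, -0.23 and -0.26. Pax5 with loss of Nrf2 after flight was the single case of the 40 in which a gene was not below its like genes, at -0.54 beside -0.60.

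**Figure D3:**
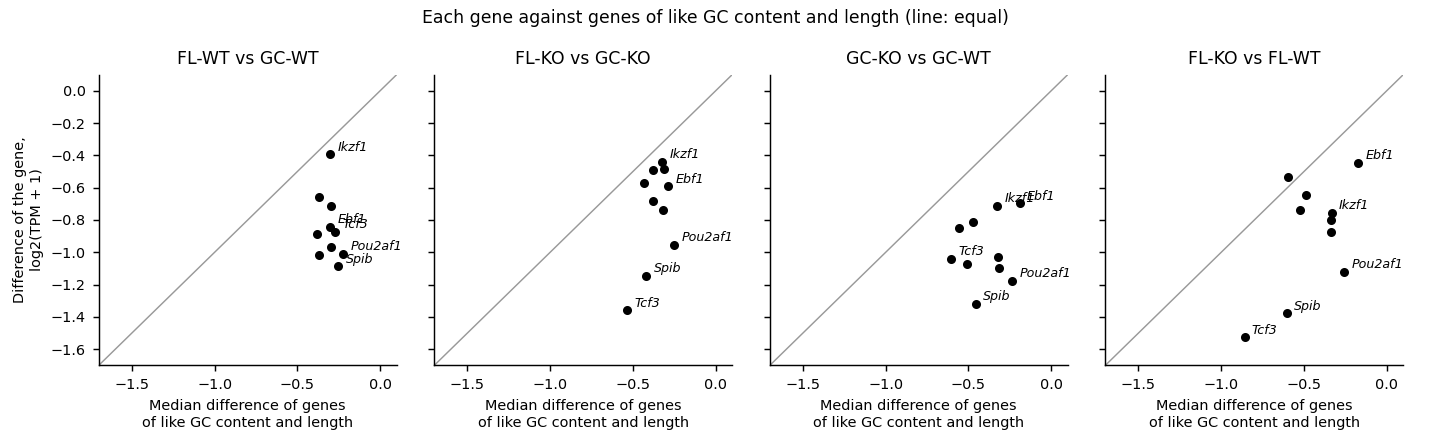
Difference of each of the 10 genes (y axis) against the median difference of tested genes of like GC content and length (x axis), both in log2(TPM + 1), with a line where both are equal. Points lie below the line, except Pax5 with loss of Nrf2 after flight.

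With the trends of GC content and length removed from each library, 9 of 10 genes were lower at an adjusted p under 0.1 with flight in wild types, 4 with flight in Nrf2-KO mice, 10 with loss of Nrf2 on the ground and 6 with loss of Nrf2 after flight, beside 15.4%, 15.5%, 22.4% and 24.1% of all tested genes. Tcf3, Pou2af1, Spib and Irf4 passed in all 4 comparisons. For Tcf3 the differences became -0.58 ± 0.07, -0.80 ± 0.07, -0.46 ± 0.07 and -0.68 ± 0.07. Those of Pou2af1 became -0.76 ± 0.13, -0.64 ± 0.13, -0.90 ± 0.13 and -0.79 ± 0.13. None of the 10 remained 2-fold lower.

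The genes were also set against Cd79a and Cd79b, the signalling chains of the B cell receptor, whose mean log2 level per library was subtracted, a scaling chosen after the data were seen. The median of all tested genes then stood at 0.38, 0.37, 0.38 and 0.39 in the 4 comparisons. Cd79a had a mean of 75.8 TPM in ground wild types, 50.9 in FL-WT mice, 41.5 in GC-KO mice and 22.1 in FL-KO mice. In the same order of groups Cd79b had means of 72.6, 48.6, 57.5 and 42.7 TPM. Relative to these, Spib and Pou2af1 were lower at an adjusted p under 0.1 in all 4 comparisons. Spib was at -0.47 ± 0.14 with flight in wild types, -0.49 ± 0.14 with flight in Nrf2-KO mice, -0.72 ± 0.14 with loss of Nrf2 on the ground and -0.74 ± 0.14 with loss of Nrf2 after flight. Tcf3 was lower in 3, at -0.70 ± 0.15 with flight in Nrf2-KO mice, -0.44 ± 0.15 with loss of Nrf2 on the ground and -0.89 ± 0.15 with loss of Nrf2 after flight, and stood at -0.26 ± 0.15 with flight in wild types (adjusted p = 0.135). Bach2 and Irf4 were lower with flight in wild types and with loss of Nrf2 on the ground, and Ikzf3 in the latter. Pax5, Ebf1, Foxo1 and Ikzf1 passed in none, with values from -0.27 to 0.23. In all, 4, 3, 6 and 3 of the 10 were lower on this scale, beside 1%, 1.82%, 4.36% and 9.55% of all tested genes. The reference genes did not move alike, as Cd79b differed by only -0.31 with loss of Nrf2 on the ground (adjusted p = 0.176) and -0.15 with loss of Nrf2 after flight (adjusted p = 0.527).

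**Figure D4:**
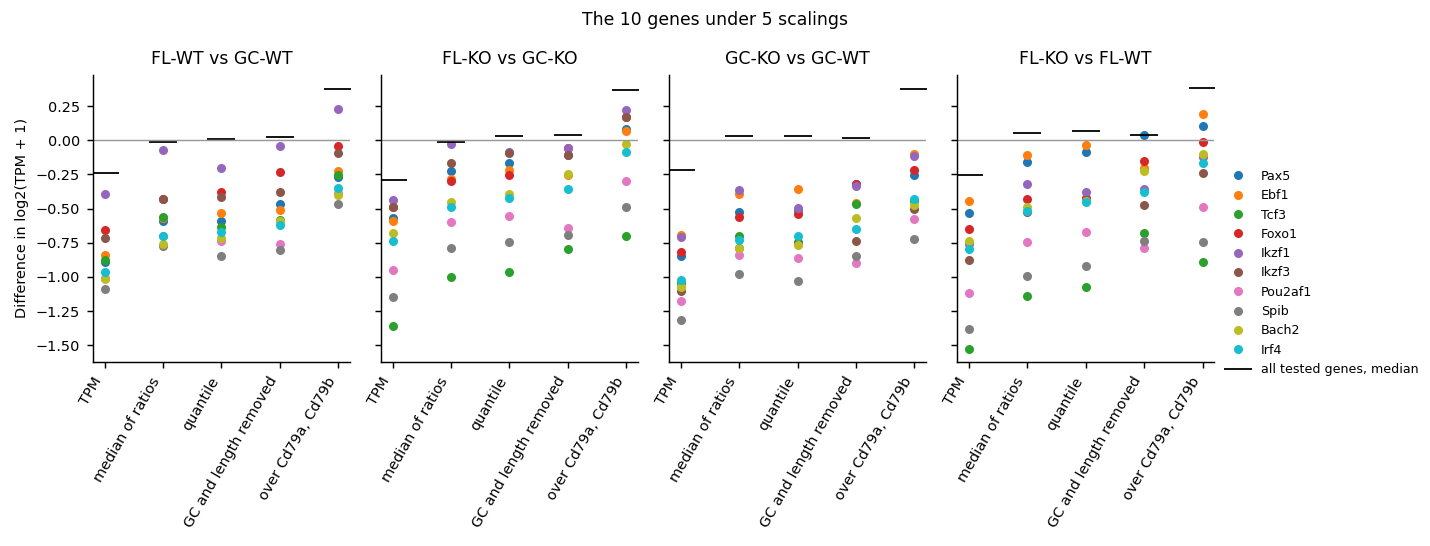
Difference of log2(TPM + 1) (y axis) of each of the 10 genes, a colour each, under 5 scalings (x axis) in the 4 comparisons, with the median of all tested genes as a black dash. The genes lie below the dash under each scaling, except Pax5 near it at 0.04 with loss of Nrf2 after flight with GC content and length removed, and the scaling to Cd79a and Cd79b puts some of them above 0, though none with loss of Nrf2 on the ground. That scaling shifts all genes of a library alike, so distances from the dash equal those on the TPM scale by construction.

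Targets and partners of the 10 factors were counted from lists of related genes, and the counts of lower genes stand beside 39%, 53.1%, 42.9% and 47.2% of all tested genes in the 4 comparisons. Of 9 pre-B and recombination genes, 8 were lower at an adjusted p under 0.1 with flight in wild types, 8 with flight in Nrf2-KO mice, 5 with loss of Nrf2 on the ground and 3 with loss of Nrf2 after flight, with median differences of -0.85, -0.79, -0.36 and -0.19. Vpreb3, a chaperone-like partner of the pre-B receptor, was called in both flight comparisons, at -1.28 ± 0.21 and -1.33 ± 0.21. Rag1, a subunit of the recombinase that joins antigen receptor segments, was called with flight in wild types at -1.16 ± 0.19 (adjusted p = 0.000146) and with loss of Nrf2 on the ground at -1.05 ± 0.19 (adjusted p = 0.000416). Among the 5 surface genes 4, 4, 3 and 3 were lower in the same order, with medians of -0.60, -0.56, -0.71 and -0.45. Ms4a1 was lower in none of the 4 at an adjusted p under 0.1, at -0.18 ± 0.17, -0.16 ± 0.17, 0.07 ± 0.17 and 0.09 ± 0.17. The coinhibitor Cd72, a Pax5 target, was called with flight in wild types at -1.02 ± 0.18 and Cd79a with loss of Nrf2 after flight at -1.12 ± 0.20. For 9 other targets and signalling genes the counts were 4, 4, 6 and 6, and the kinase Syk was called in both genotype comparisons, at -1.06 ± 0.19 and -1.22 ± 0.19.

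Partner factors were counted beside the same shares of all tested genes. Of 17 commitment partners 9 were lower with flight in wild types, 11 with flight in Nrf2-KO mice, 15 with loss of Nrf2 on the ground and 13 with loss of Nrf2 after flight, with medians of -0.40, -0.39, -0.68 and -0.62. Spi1 (PU.1), which lymphoid and myeloid cells both need, was called with loss of Nrf2 after flight at -1.30 ± 0.19, and so was Irf8 at -1.03 ± 0.19. With flight in wild types Spi1 stood at 0.01 ± 0.19. Of 16 regulators of maturation and plasma cells 14 were tested, and 6, 10, 12 and 12 were lower. The repressor Bcl6 was called in both genotype comparisons at -1.18 ± 0.21 and -1.42 ± 0.21, as were Klf2 at -1.07 ± 0.22 and -1.41 ± 0.22 and Nfkb1 at -1.02 ± 0.20 and -1.23 ± 0.20, and Stat5b was called with loss of Nrf2 after flight at -1.10 ± 0.19. These factors are also made by other marrow cells.

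Several of the 10 are used outside the B lineage, so markers of other cells were set beside them. The 6 plasmacytoid dendritic cell genes, Siglech among them, summed to medians of 41.9, 33.6, 46.8 and 35.3 TPM in the 4 groups, in the order of the dot plots, within 28.0 to 54.9 TPM over all mice. None of the 6 was lower at an adjusted p under 0.1 with flight in wild types, 4 with flight in Nrf2-KO mice, and 1 in each genotype comparison. Klk1, one of the 6, was called higher in both genotype comparisons, at 1.34 ± 0.18 on the ground (adjusted p = 3.95e-05) and 1.003 ± 0.18 after flight (adjusted p = 7.48e-05), and its mean was 3.398 TPM in GC-WT and 9.58 TPM in GC-KO mice. The 10 T and NK cell genes summed to medians of 70.9, 72.8, 62.0 and 64.0 TPM in the same order of groups. The 6 plasma cell genes, Jchain first in level, summed to medians of 111, 103, 98.9 and 78.8 TPM. For the 8 monocyte and macrophage genes the medians were 541, 602, 385 and 344 TPM, and for the 6 stem and progenitor genes 22.7, 18.1, 15.9 and 13.5 TPM. None of these genes was at 0 in every library. Sums follow their most abundant genes, so single called genes are given too. The neutrophil genes Mmp9, Mpo and Ltf were called in both genotype comparisons, at -1.92 ± 0.33, -1.72 ± 0.31 and -1.62 ± 0.28 on the ground and at -2.85 ± 0.33, -2.39 ± 0.31 and -2.33 ± 0.28 after flight. The 10 neutrophil genes did not move alike. With loss of Nrf2 on the ground 5 of them were lower and 2 higher at an adjusted p under 0.1. The 2 were S100a8 at 0.48 ± 0.14 and S100a9 at 0.45 ± 0.15, beside 387 of the 12373 tested genes higher. With loss of Nrf2 after flight 7 were lower and none higher. With flight in wild types 5 were higher and none lower, beside 123 of the 12373 tested genes higher. The 10 summed to medians of 40918, 60116, 49473 and 51631 TPM in the same order of groups. Mmp9 and Mpo were also called with flight in Nrf2-KO mice, at -1.17 ± 0.33 and -1.06 ± 0.31. In that comparison 3 of the 10 neutrophil genes were lower and 1 higher at an adjusted p under 0.1. The erythroid genes Slc4a1 and Epor were called with flight in both genotypes, at -1.15 ± 0.20 and -1.03 ± 0.17 in wild types and -1.78 ± 0.20 and -1.31 ± 0.17 in Nrf2-KO mice, the latter with Klf1 at -1.496 ± 0.19. At an adjusted p under 0.1, 4 of the 9 erythroid genes were lower with flight in wild types and 5 in Nrf2-KO mice. None was higher, and the median differences of the 9 were -0.18 and -0.47. Of all tested genes 39% and 53.1% were lower. With loss of Nrf2 after flight Slc4a1 and Klf1 were called as well, at -1.06 ± 0.20 and -1.02 ± 0.19. In that comparison 3 of the 9 erythroid genes were lower and 2 higher at an adjusted p under 0.1. The median difference of the 9 was 0.04. At an adjusted p under 0.1, 4 of the 8 monocyte and macrophage genes were lower with loss of Nrf2 on the ground. After flight 6 were lower, and none was higher in either, beside 42.9% and 47.2% of all tested genes lower. The macrophage receptor Csf1r was called in both genotype comparisons, at -1.24 ± 0.25 and -1.74 ± 0.25, and Cx3cr1, Elane of the neutrophil genes and the T cell gene Cd3e with loss of Nrf2 after flight, at -1.03 ± 0.26, -1.04 ± 0.22 and -1.05 ± 0.18. Cd3e was the only T and NK cell gene called, and 5 of the 10 were lower and none higher there at an adjusted p under 0.1. Cd3d had means of 2.56 TPM in FL-WT and 2.97 TPM in FL-KO mice, and Cd3g 3.445 and 4.175 TPM. The part of these cells in the levels of the 10 factors was not tested.

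Within groups the 10 genes rose and fell together from mouse to mouse. Over the 24 libraries with group means removed, Pearson's r of log2(TPM + 1) ran from 0.65 to 0.96 over the 45 pairs, with a median of 0.89. Ebf1 and Pax5 were close at 0.92, as were Pou2af1 and Irf4 at 0.95 and Foxo1 and Bach2 at 0.96, whereas the lowest values were those of Tcf3 with Ebf1, 0.65, and with Pax5, 0.67. Libraries share depth and composition, and with each library centred on its median the range was 0.20 to 0.91 and the median 0.78. These values describe the libraries and carry no test.

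**Figure D5:**
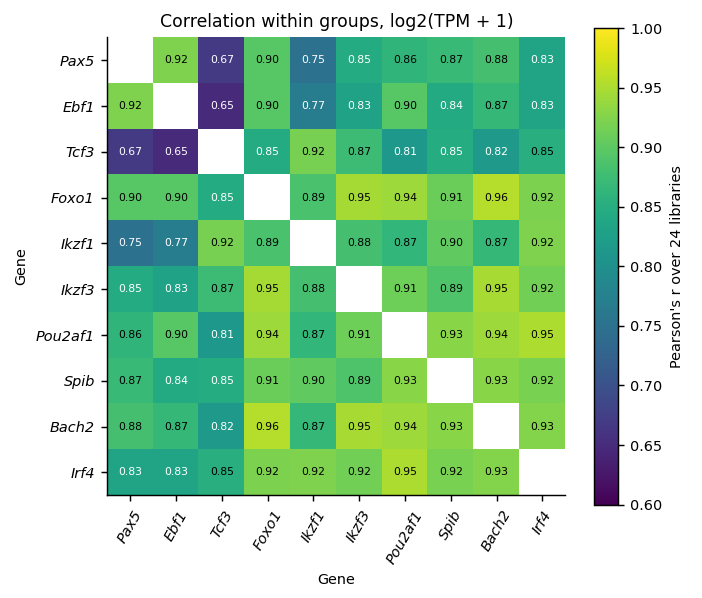
Pearson's r (colour and printed value) between each pair of the 10 genes (both axes) over 24 libraries of log2(TPM + 1) with group means removed. Tcf3 has its lowest values with Pax5 and Ebf1, at 0.67 and 0.65, and Foxo1, Bach2, Ikzf3, Pou2af1 and Irf4 have values above 0.90 with one another.

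The likest tested genes, among those with a mean of at least 5 TPM, divided the 10 by neighbours. Their r was taken without centring libraries on their median, so shared depth and composition may enter it. Pax5 had Siglecg (r = 0.89) and Ablim1 (0.87) among its likest genes, and Ebf1 was most like Pax5 (0.92), Ablim1 (0.91) and Pou2af1 (0.90). The neighbours of Tcf3 were Nr1h2, Fxr2 and Phc2, all at 0.98, and those of Ikzf1 were Stk4, Mapk14 and Ets1, all at 0.98, of which none is specific to B cells. Map4k1, a kinase of blood cells, was among the 3 likest genes of Foxo1 (0.95), Pou2af1 (0.95), Spib (0.96) and Bach2 (0.95). Ikzf3 was most like Ikbkb (0.96), Syk (0.95) and Il2rg (0.95), and Irf4 most like Pou2af1 (0.95), Atp1b1 (0.94) and Elovl5 (0.94). The remaining neighbours were Il2rg (0.95) and Ikzf3 (0.95) for Foxo1, Herpud1 (0.94) and Spib (0.93) for Pou2af1, Hvcn1 (0.95) and Dgkd (0.95) for Spib, and Wdfy4 (0.95) and Myo1c (0.95) for Bach2.

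Genes annotated on the opposite strand overlap Pax5, Ebf1, Foxo1, Ikzf1 and Bach2, and none overlaps Tcf3, Ikzf3, Pou2af1, Spib or Irf4 on that strand. The library kit keeps the strand, but the strand setting used in counting is not given in the sources used here, so reads of such partners may be included for the former. The depth of each library is unknown, as the values are TPM, and the counting error of single values cannot be given.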

How the data were processed

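Marrow cells frozen in CELLBANKER2 were lysed in ISOGEN-LS, libraries were made with the MGIEasy RNA Directional kit, and reads of a DNBSEQ-G400 were aligned to mm10 by STAR 2.6.1 and summarised by RSEM 1.3.1. The authors deposited TPM values, which are scaled for transcript length and sum to 999999.5 to 1000001.1 in a library. The depth per library is unknown, and no counting error can be given.

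Groups came from the sample labels. Of 54752 genes, 12373 with TPM above 1 in at least 1 library were tested on the scale log2(TPM + 1), the pseudocount being 1. The limma package (3.58.1, R 4.3.3) fitted all 24 libraries with 4 group means, and p-values were adjusted over all tested genes by Benjamini-Hochberg. A call needed an adjusted p under 0.1 and a fold of at least 2, the thresholds of the study. The fit was tested on simulated data. Mouse numbers recur in flight and ground mice, which are different animals.

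The 10 genes and 12 further lists of 111 genes were chosen with earlier results of these data known. Named are the 10 genes, Nfe2l2, Cd79a, Cd79b, Rag1, called genes of the other lists, and for each of the 10 the 3 likest genes. The flight value of Spi1, the differences of Ms4a1, and Siglech, Jchain, S100a8, S100a9, Cd3d and Cd3g were named after their values were seen. A gene of these lists and the scaling planned with it are not reported here. Coordinates, lengths and GC content (12370 genes) are from GENCODE M21 on GRCm38, and promoters from RefSeq on GRCm38.p6. The alternatives were a pseudocount of 0.1, other filters (none, or TPM above 1 in 6 libraries), scaling by median of ratios or quantiles, leaving out 5 small RNAs, removing GC content and length trends, scaling to Cd79a and Cd79b (added after the data were seen), a mean-expression trend, an adjusted p under 0.05, no minimum fold, fits of the compared groups only, a block of mouse number, and omission of each library. Python 3.11.15 and matplotlib 3.10.9 drew the figures.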

Additional observations from a re-analysis of the deposited data

How the results depend on the processing

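The number of the 10 genes called moved with the scale. With flight in wild types it was 3, and 6 with a pseudocount of 0.1, 0 with median-of-ratios scaling, quantile normalization, the scaling to Cd79a and Cd79b or GC content and length removed, and 10 with no minimum fold, and it ranged from 0 to 7 with 1 library left out. With flight in Nrf2-KO mice it was 2, and in these same settings 5, 1, 0, 0, 0 and 10, with 2 to 3 when 1 library was left out. With loss of Nrf2 on the ground it was 6, and 0 with median-of-ratios scaling, 1 with quantile normalization, 0 with either of the next 2 and 10 with no minimum fold, with 2 to 6 when 1 library was left out. With loss of Nrf2 after flight it was 3, and 7, 1, 1, 0, 0 and 10, with 2 to 4 when 1 library was left out. The number at an adjusted p under 0.1 without the fold was 10 in each comparison, and 4, 3, 6 and 3 relative to Cd79a and Cd79b; with flight in Nrf2-KO mice it was 6 with median-of-ratios scaling or quantile normalization and 4 with GC content and length removed, and with loss of Nrf2 after flight 6 with GC content and length removed. The interaction called 0 of the 10 in every alternative. Directions turned relative to Cd79a and Cd79b, a scaling chosen after the data were seen, for Ikzf1 with flight in wild types (0.23), for Pax5 (0.085), Ebf1 (0.066), Foxo1 (0.17), Ikzf1 (0.22) and Ikzf3 (0.17) with flight in Nrf2-KO mice, and for Pax5 (0.10) and Ebf1 (0.19) with loss of Nrf2 after flight, and with GC content and length removed for Pax5 with loss of Nrf2 after flight (0.037). In the interaction Ikzf1 turned to 0.045 with median-of-ratios scaling, 0.12 with quantile normalization and 0.15 without the small RNAs, Pou2af1 to -0.023 with a pseudocount of 0.1, and Spib to 0.11 with quantile normalization, 0.084 without the small RNAs and 0.11 with GC content and length removed; with 1 library left out these ranged from -0.14 to 0.087, -0.053 to 0.21 and -0.19 to 0.13. The causes were not tested. With the mouse number as a block, 3 and 2 genes were called in the 2 flight comparisons and 0 in the interaction, as without it; mice of the same number had r above 0.1 in 7 of 12 pairs (range -0.03 to 0.27), r above the mean with other numbers in 10 and their highest r with their own number in 3. As 5 pairs were not above 0.1, the numbers were not taken as pairs. Depth cannot be judged from TPM.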
